A study of Mus musculus with 9 samples.

Results

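The integrated stress response and the unfolded protein response were followed through 40 genes, chosen by name from the 54532 genes of the expression table. They comprise 4 stress sensors, 5 transcription factors, 13 genes of an ATF4 amino acid branch (amino acid synthesis, amino acid transport and tRNA charging), 5 further ATF4 stress and feedback genes, and 13 genes of an endoplasmic reticulum (ER) chaperone branch. All 40 names were found, and Ddit3 had a second row of 105 bases that was at 0 in all 9 libraries and was not used. BV2 cells, a mouse microglia line made immortal, had their RNA sequenced as 3 control, 3 OGD and 3 OGD + A-485 libraries. Control cells were kept in DMEM with 10% fetal bovine serum. OGD, oxygen glucose deprivation, was low-glucose DMEM with 4% serum in a hypoxic chamber at 4% oxygen. A-485 blocks the acetyltransferase P300. Experiments that came before the transcriptome added it at 50 μM when OGD began and ended OGD at 24 h, and the same dose and time are assumed here. No group had A-485 without OGD, so that an action of A-485 on these genes apart from OGD cannot be told apart from an action on the response to OGD. The labels do not say whether the libraries of a group came from separate cultures, and p-values measure the spread between libraries, which may be technical.

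The reads on genes came to between 12593250 and 16091038 per library. Levels are given as FPKM, in which fragments are divided by the length of the gene and by a divisor for the library, so that genes can be compared. This divisor came from medians of ratios between libraries, as described under the processing, and is not the total of the library's own reads. Of 13 microglia and macrophage markers, 12 had a mean over all libraries of at least 1 FPKM, led by Cd68 at 343 FPKM. Aif1, 1 of the 12, reached it only through OGD + A-485, with means of 0.613 in control, 0.889 after OGD and 2.57 in OGD + A-485. P2ry12, a marker of resting microglia, had 0.0621 FPKM in control. The summed level of these markers was 674, 686 and 669 FPKM in control, 824, 806 and 842 after OGD and 1508, 1456 and 1514 in OGD + A-485, so it moved with the groups, and its part in the results below was not tested. None of 5 neuronal, 4 astrocyte, 4 oligodendrocyte and 4 fibroblast and mural markers reached a mean over all libraries of 1 FPKM. Of these, Aqp4, Mog, Olig2, Col1a2 and Dcn were at 0 in all libraries. The most abundant was Mbp at 0.956 FPKM, with group means of 1.04 in control, 1.10 after OGD and 0.737 in OGD + A-485. Among 4 endothelial markers Flt1 stood at 21.5 FPKM, and Cldn5 was at 0 in all libraries. Mitochondrial genes took 1.82, 1.93 and 2.20% of the reads in control, 1.14, 1.28 and 1.17% after OGD and 1.66, 2.01 and 1.85% in OGD + A-485. This share was lower in OGD than in the other groups, and its part in the results was not tested either. These are bulk RNA values, in which fewer cells of a state and less RNA per cell cannot be told apart.

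The integrated stress response starts with kinases that phosphorylate the translation factor eIF2α. Among them are PERK (Eif2ak3), which senses unfolded protein in the ER, and GCN2 (Eif2ak4), which senses uncharged tRNA. Most translation then slows while the mRNA of ATF4 is translated more, and ATF4 raises genes for amino acid supply, tRNA charging and, with CHOP (Ddit3), for feedback and cell death. The unfolded protein response adds IRE1 (Ern1), which splices the mRNA of Xbp1, and ATF6, which is cut in the Golgi apparatus, and their products raise ER chaperones and genes of ER-associated degradation. The ATF4 protein, eIF2α phosphorylation, ATF6 cleavage and Xbp1 splicing are not visible in gene-level RNA values, and were not measured here.

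A gene was called higher or lower in a comparison when its limma p-value was under 0.01 before adjustment and its log2 fold change on the scale of log2(FPKM + 0.1) was beyond 0.5 in size, and p-values adjusted over all 16123 genes tested (Benjamini-Hochberg) are given beside. Of the 40 genes, 39 were tested. Vldlr, a lipoprotein receptor that PERK and ATF4 raise in other cells, had 1 read in 1 OGD library and 0 in the other 8, and was too low to test. In OGD against control, 15 of the 39 were called, 6 higher and 9 lower, a share of 38.5% beside 21.0% of all genes tested (11.2% higher and 9.81% lower). In OGD + A-485 against OGD, 12 were called, 10 higher and 2 lower, or 30.8% beside 25.7% (12.2% higher and 13.4% lower). In OGD + A-485 against control, 11 were called higher and 2 lower, and this share of 33.3% was close to the 33.7% of all genes (17.0% higher and 16.6% lower). The median log2 fold change of the 39 was 0.02, 0.16 and 0.10 in these comparisons, beside 0.01, 0.01 and 0.02 over all genes. Other scalings of the libraries moved these counts and medians. With quantile normalization 6 members were higher and 10 lower in OGD, 8 and 2 in OGD + A-485 against OGD (25.6% beside 25.4% of all genes), and 10 and 4 against control (35.9% beside 33.6%), with medians of 0.02, 0.03 and 0.03. With the same FPKM sum in every library 6 were higher and 12 lower, 7 and 3 (25.6% beside 26%), and 10 and 6 (41% beside 35.5%), with medians of -0.05, 0.06 and -0.06. In both, the share called with A-485 against OGD was thus close to that of all genes, and no direction is given for the members as a whole against control. The comparisons share libraries, and their values are set side by side without a test between them. By another rule, an adjusted p under 0.05 in place of both the unadjusted p and the threshold on size, 14 members were higher and 16 lower in OGD, beside 22.5% and 22.8% of all genes (45.3% together). By the same rule 22 were higher and 7 lower in OGD + A-485 against OGD, beside 25.1% and 24.7% (49.8% together), and 18 and 12 against control, beside 28.2% and 28.4% (56.6% together).

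**Figure D1:**
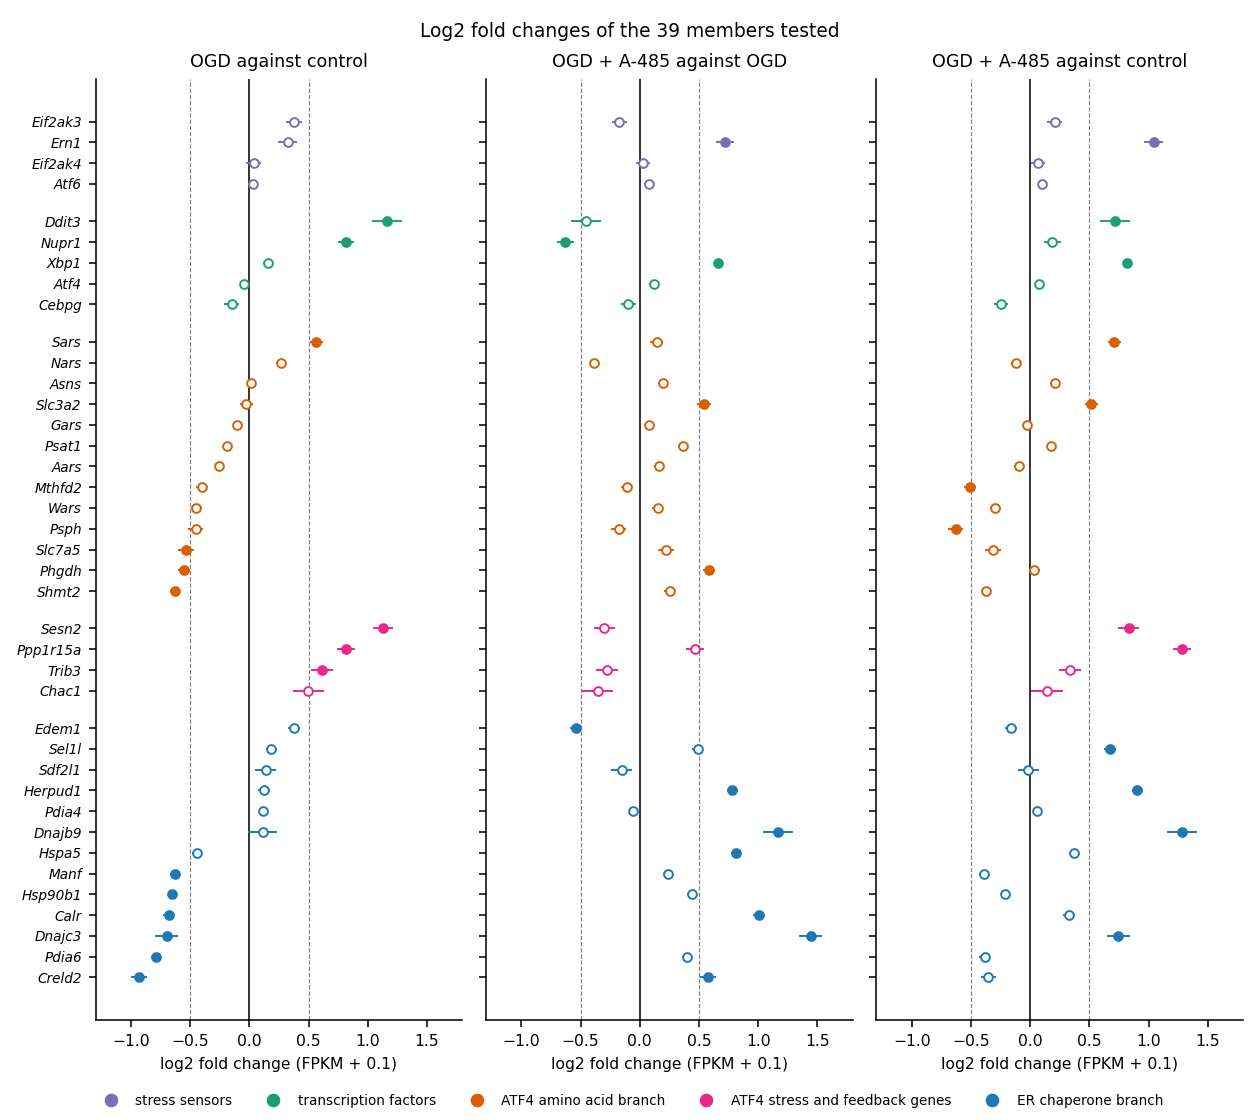
Log2 fold changes (FPKM + 0.1) of the 39 members tested, ordered by role and, within a role, by the change in OGD. Points are limma estimates over 3 libraries a group, bars are standard errors, filled points were called, and dashed lines mark the threshold on size of 0.5. In OGD 6 genes of the ER chaperone branch are called lower and 6 lie above 0, and in OGD + A-485 against OGD its values reach 1.45 for Dnajc3.

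The promoters of the members were searched for the known motifs of the response. RefSeq promoters of 300 bases (250 before and 50 after the start site, build GRCm38.p6) were at hand for 35 of the 40 genes, and not for Atf6, Slc7a5, Nars, Wars and Manf. The ER stress response element (ERSE), which ATF6 and XBP1 use together with NF-Y, was searched as CCAAT and CCACG with any 9 bases between them, ERSE-II as ATTGG and CCACG with any 1 base between them, a further UPR element (UPRE) as TGACGTGG, and the core of the element that ATF4 binds with C/EBP partners (CARE) as TGATGNAA, all on both strands. ERSE stood in 0.119% of all 32851 promoters, ERSE-II in 0.0365%, UPRE in 0.676% and CARE in 3.97%. Of the 12 ER chaperone branch genes with a promoter, 6 held ERSE (Hspa5, Hsp90b1, Calr, Pdia6, Dnajc3 and Creld2), and no other member did. Herpud1 held ERSE-II and CARE, and no member held UPRE. CARE was found in 3 of 10 genes of the ATF4 amino acid branch (Asns, Gars and Aars), in 3 of 5 ATF4 stress and feedback genes (Chac1, Trib3 and Vldlr), and in Nupr1. No matches in the members overlapped. A match describes letters in this window, and no binding was measured. The members were listed by name for their roles in this response. Their shares with its known motifs therefore describe the list and were not tested.

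The stretches before the start site that carry ERSE or ERSE-II are shown because 7 genes of the ER chaperone branch, whose values follow, hold them. Dnajb9, Sel1l and Edem1, which were also called, held neither, and Manf had no promoter at hand. The stretches are written 5′ to 3′ on the strand of the gene, with the matches in capitals (CARE included in Herpud1), and a match that begins with CGTGG is ERSE read from the opposite strand:
Hspa5 (chr2:34772020-34772048, plus strand): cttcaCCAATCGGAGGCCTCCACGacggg
Hsp90b1 (chr10:86705513-86705676, minus strand): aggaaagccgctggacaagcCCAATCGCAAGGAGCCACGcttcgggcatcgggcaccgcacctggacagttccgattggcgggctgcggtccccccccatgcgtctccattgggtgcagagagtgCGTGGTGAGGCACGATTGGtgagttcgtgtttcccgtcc
Calr (chr8:84847055-84847113, minus strand): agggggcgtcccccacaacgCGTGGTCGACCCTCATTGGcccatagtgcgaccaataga
Pdia6 (chr12:17266471-17266529, plus strand): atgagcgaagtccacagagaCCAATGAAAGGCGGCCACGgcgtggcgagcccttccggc
Dnajc3 (chr14:118937807-118937865, plus strand): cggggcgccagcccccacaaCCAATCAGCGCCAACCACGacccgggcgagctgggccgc
Creld2 (chr15:88819500-88819558, plus strand): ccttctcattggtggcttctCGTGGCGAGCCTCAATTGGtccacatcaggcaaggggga
Herpud1 (chr8:94386297-94386407, plus strand): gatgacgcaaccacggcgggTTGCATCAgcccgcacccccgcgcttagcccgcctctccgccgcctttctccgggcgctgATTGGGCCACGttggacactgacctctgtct

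The stretches around CARE are shown for 3 members whose values follow, again with the match in capitals, and a match that begins with TTGCATCA is CARE read from the opposite strand:
Asns (chr6:7693220-7693237, minus strand): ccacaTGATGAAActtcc
Chac1 (chr2:119351029-119351076, plus strand): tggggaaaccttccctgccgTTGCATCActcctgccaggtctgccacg
Nupr1 (chr7:126625568-126625585, minus strand): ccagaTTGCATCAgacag

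Hsp90b1 held ERSE at 2 places, 212 and 107 bases before the start site. In the other members with ERSE the match began between 65 (Hspa5) and 162 bases (Calr) before it. The stretches of Hspa5, Asns and Nupr1 lie in a 5′ untranslated region of a longer transcript in the GENCODE M21 annotation of the same genome, and only the bases next to the match are printed. The rest lie outside annotated exons.

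**Figure D2:**
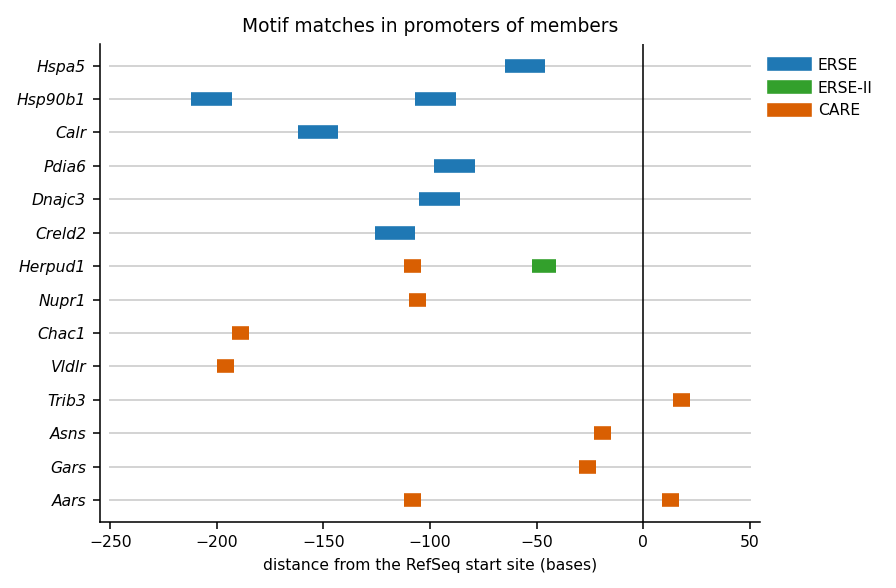
Motif matches in the promoters of the 14 members that held any, along 250 bases before and 50 bases after the RefSeq start site (0, vertical line). Blue marks ERSE, green ERSE-II and orange CARE, each drawn at its length, and ERSE appears in 6 genes of the ER chaperone branch.

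Among the sensors, Ern1, the IRE1 kinase and nuclease (chr11:106394650-106487852), measured 3.62, 4.02 and 3.60 FPKM in control, 4.89, 4.96 and 4.28 after OGD and 8.15, 7.90 and 7.39 in OGD + A-485. The OGD + A-485 libraries all lay above the rest, and the OGD libraries lay above control by less. Ern1 rose by 0.72 ± 0.08 (log2 fold change ± SE, as below) against OGD (limma adjusted p = 8e-05) and by 1.04 ± 0.08 against control (limma adjusted p = 5.4e-06), and its 0.32 ± 0.08 in OGD was under the threshold on size. Eif2ak3, the PERK kinase, averaged 4.16 ± 0.160 FPKM (SD, n = 3) in control, 5.43 ± 0.256 after OGD and 4.81 ± 0.20 in OGD + A-485. Its log2 fold change in OGD of 0.38 ± 0.06 had a limma adjusted p of 0.0013 and was also under the threshold on size. Atf6 and Eif2ak4 had group means between 16 and 17.2 FPKM and between 13.1 and 13.8 FPKM, with log2 fold changes from 0.03 to 0.10. With limma, 0 of the 4 sensors were called in OGD against control (beside 21.0% of all genes), 2 had a p under 0.05 before adjustment, and limma-voom on reads called 0.

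Atf4, the factor on which the integrated stress response converges (chr15:80255184-80257541), was the most abundant of the 5 transcription factors at 110.1, 109.8 and 102 FPKM in control, 103, 107 and 103 after OGD and 113, 113 and 114 in OGD + A-485. Control and OGD libraries overlapped, and the OGD + A-485 libraries lay slightly above both. Its log2 fold change was -0.04 ± 0.04 in OGD, 0.12 ± 0.04 in OGD + A-485 against OGD and 0.08 ± 0.04 against control, none of them called, and the last was -0.05 with quantile normalization and -0.09 with the same FPKM sum. Ddit3, which encodes the proapoptotic factor CHOP (chr10:127290774-127296288), measured 3.32, 4.14 and 3.97 FPKM in control, 8.94, 7.80 and 9.21 after OGD and 5.71, 5.77 and 7.53 in OGD + A-485. All OGD libraries were above all control libraries, and the OGD + A-485 libraries lay between them. Ddit3 rose in OGD by 1.17 ± 0.13 (limma adjusted p = 0.0001) and stood 0.71 ± 0.13 above control in OGD + A-485 (limma adjusted p = 0.0012). The difference between OGD + A-485 and OGD was -0.45 ± 0.13 and was not called, but passed the threshold with the same FPKM sum in every library (-0.55), with the median of its 50 neighbouring genes removed (-0.62), without OGD replicate 2 (-0.52) and without OGD + A-485 replicate 3 (-0.58). Here and below, removal of neighbouring genes shifted only the log2 fold change. The p of the main fit was kept, and the shifted value itself was not tested. Ddit3 overlaps Mars on the opposite strand, and whether the authors' counting used the strand is not given in the sources used here, so its reads are uncertain. Mars itself averaged 58.5, 51.7 and 36.3 FPKM in control, OGD and OGD + A-485.

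Nupr1, a small stress-induced chromatin protein, measured 4.32, 3.74 and 3.98 FPKM in control, 7.47, 7.18 and 6.76 after OGD and 4.44, 4.58 and 4.72 in OGD + A-485. The OGD libraries stood apart above both other groups. It rose in OGD by 0.82 ± 0.07 (limma adjusted p = 2.6e-05) and fell with A-485 by 0.63 ± 0.07 (limma adjusted p = 8.9e-05). Xbp1, the target of IRE1 (chr11:5520659-5525893), behaved differently, at 30.4, 29.5 and 30.8 FPKM in control, 32.5, 34.1 and 34.5 after OGD and 54.8, 52.6 and 52.6 in OGD + A-485. Its OGD + A-485 libraries were far above the others, by 0.66 ± 0.04 against OGD (limma adjusted p = 1.6e-06) and 0.82 ± 0.04 against control (limma adjusted p = 2.7e-07), while its 0.16 ± 0.04 in OGD against control was not called. Cebpg, a C/EBP partner of ATF4, had means of 10.3, 9.28 and 8.66 FPKM and was not called. Thus of 5 factors, Ddit3 and Nupr1 were called higher in OGD (2 of 5, beside 11.2% of all genes), and Xbp1 higher and Nupr1 lower with A-485 against OGD (1 of 5 each, beside 12.2% and 13.4%).

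**Figure D3:**
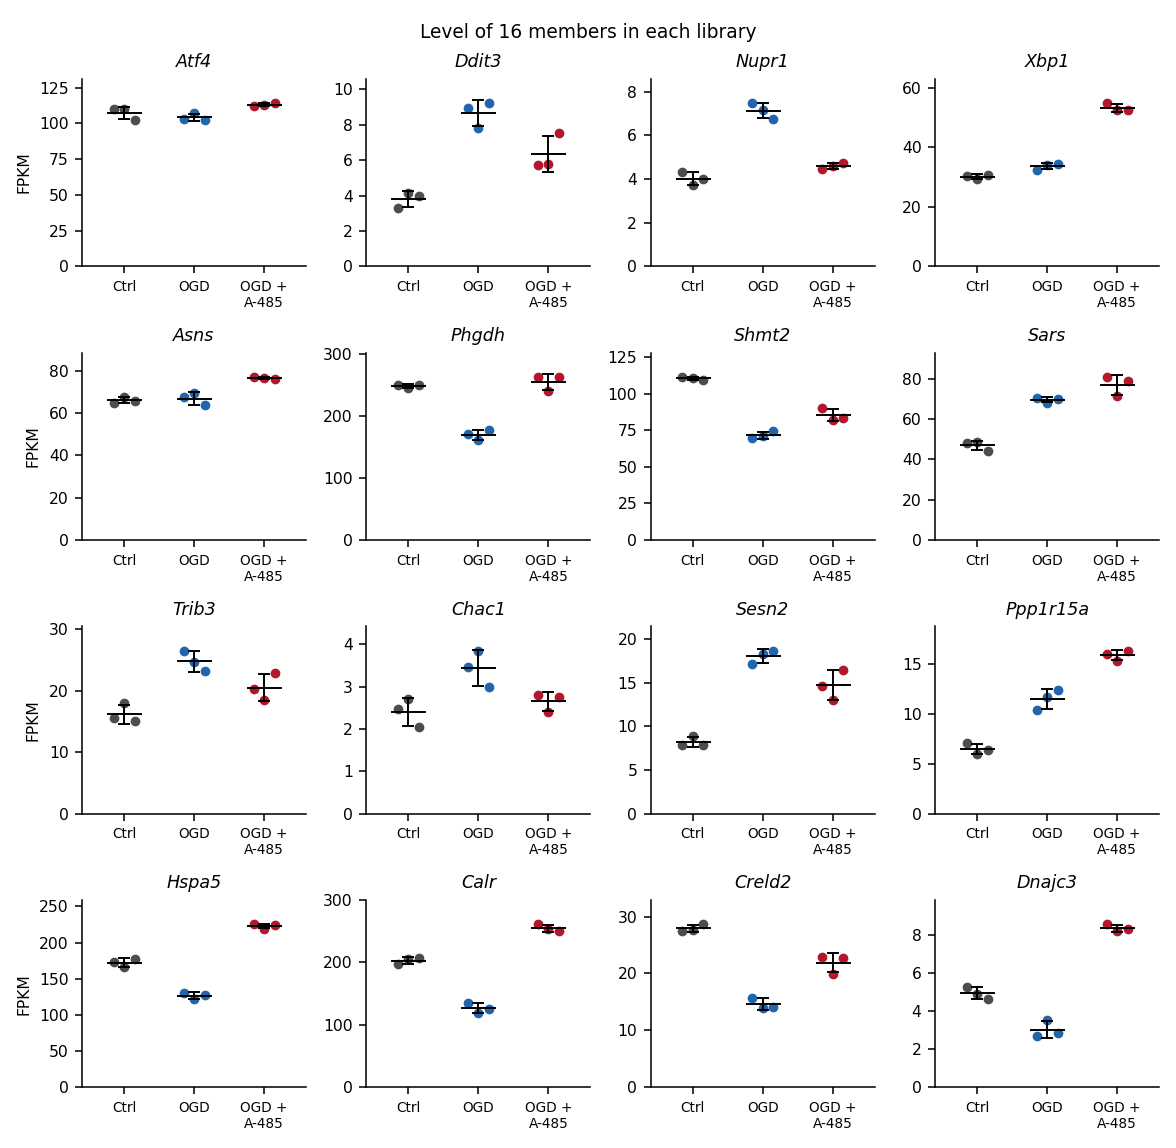
FPKM of 16 members in each of the 9 libraries, with axes from 0. Points are libraries, horizontal lines are group means and error bars are SD (n = 3). Ddit3, Nupr1, Trib3 and Sesn2 are highest in OGD, whereas Hspa5, Calr, Creld2 and Dnajc3 are lowest there.

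In the ATF4 amino acid branch most genes lay below control in OGD. Of 13 genes, 3 were called lower (Shmt2, Phgdh and Slc7a5) and 1 higher (Sars), 10 had a log2 fold change below 0, and the median was -0.26. These are 23.1% lower and 7.69% higher, beside 9.81% and 11.2% of all genes, and with the same FPKM sum 5 were lower. Shmt2, the mitochondrial serine hydroxymethyltransferase, measured 112, 111 and 109.7 FPKM in control, 69.8, 70.9 and 74.5 after OGD and 90.4, 82.5 and 83.5 in OGD + A-485. Its OGD libraries were all below control and its OGD + A-485 libraries lay between. It fell in OGD by 0.63 ± 0.04 (limma adjusted p = 8e-06). In OGD + A-485 against control Shmt2 stood at -0.37 ± 0.04 and was not called. It passed there with quantile normalization (-0.55), with the same FPKM sum (-0.54) and with neighbouring genes removed (-0.64). Phgdh, which catalyses the entry step of serine synthesis, measured 251, 245 and 251 FPKM in control, 172, 162 and 177 after OGD and 263, 241 and 263 in OGD + A-485. The OGD libraries were lowest, and of the OGD + A-485 libraries 2 lay just above control and 1 just below it. Phgdh fell in OGD by 0.55 ± 0.05 (limma adjusted p = 3.6e-05) and rose with A-485 by 0.59 ± 0.05 (limma adjusted p = 1.8e-05), a call lost with quantile normalization (0.41) and with the same FPKM sum (0.49). Against control it stood at 0.04, which turned to -0.44 with quantile normalization and -0.12 with the same FPKM sum. Psph, the last enzyme of that pathway, did not return with A-485, at 10.8, 11 and 10.8 FPKM in control, 7.71, 8.45 and 7.65 after OGD and 6.72, 6.73 and 7.58 in OGD + A-485. The OGD libraries lay below control, and the libraries with A-485 lower still, without overlap. It was -0.45 ± 0.06 in OGD, under the threshold (-0.52 and called with the same FPKM sum, -0.30 with neighbouring genes removed), and lower by 0.63 ± 0.06 in OGD + A-485 against control (limma adjusted p = 3e-05). It overlaps a Cct6a transcript on the opposite strand, and its reads are uncertain for the same reason as those of Ddit3. Psat1, the enzyme between them, averaged 100.3, 88.1 and 113 FPKM and was not called.

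Asns, asparagine synthetase and a classical ATF4 target whose promoter holds CARE 23 bases before the start site, measured 64.8, 67.7 and 65.5 FPKM in control, 67.3, 69.5 and 63.6 after OGD and 77, 76.3 and 75.8 in OGD + A-485. Control and OGD libraries overlapped and those with A-485 were slightly higher, with log2 fold changes of 0.02 ± 0.04 in OGD, 0.19 ± 0.04 against OGD and 0.21 ± 0.04 against control, none called, and the last 2 were 0.02 and 0.06 with quantile normalization. The light and heavy chains of the large neutral amino acid transporter differed. Slc7a5, the light chain, was lower in OGD by 0.54 ± 0.07 (limma adjusted p = 0.00024), a call lost without OGD replicate 2 (-0.49). Slc3a2, the heavy chain, measured 56, 54.6 and 51.4 FPKM in control, 54.2, 50.7 and 54.1 after OGD and 80.4, 71.6 and 80.049 in OGD + A-485. Control and OGD libraries overlapped, and all OGD + A-485 libraries were higher. It was called higher with A-485, by 0.54 ± 0.06 against OGD (limma adjusted p = 5.7e-05) and 0.52 ± 0.06 against control (limma adjusted p = 5.4e-05), and neither call held throughout. The former was lost with quantile normalization (0.38), with the same FPKM sum (0.45) and with the median of its 50 neighbouring genes removed (0.46), and the latter in the same 2 scalings (0.37 and 0.36), without control replicate 3 (0.48) and without OGD + A-485 replicate 1 (0.49) or 3 (0.49). Mthfd2, a mitochondrial folate enzyme, had 43.9, 33.2 and 30.8 FPKM and was called lower in OGD + A-485 against control at -0.51 ± 0.05, just past the threshold, and not with a pseudocount of 1 (-0.497), with neighbouring genes removed (-0.41), or without control replicate 1 (-0.49) or OGD + A-485 replicate 3 (-0.49).

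Among the 5 tRNA synthetases of the branch, Sars, for serine, stood out at 48, 48.6 and 44.2 FPKM in control, 70.4, 68.1 and 70.1 after OGD and 80.9, 71.2 and 78.7 in OGD + A-485. All OGD libraries were above all control libraries, and those with A-485 lay slightly above OGD. Sars rose in OGD by 0.57 ± 0.06 (limma adjusted p = 5.2e-05) and was 0.71 ± 0.06 above control with A-485 (limma adjusted p = 6.2e-06). Its 50 nearest genes had a median of 0.20 in OGD, and 0.37 was left once that was taken off. Nars, for asparagine, was the most abundant synthetase of the branch, with 193, 233 and 178 FPKM, and its 0.27 ± 0.04 in OGD and -0.39 ± 0.04 against OGD were under the threshold on size, the former at 0.02 with quantile normalization. Aars, Gars and Wars, for alanine, glycine and tryptophan, had log2 fold changes from -0.45 to -0.11 in OGD and from 0.08 to 0.16 with A-485 against OGD, none called. In the latter Gars was -0.03 with quantile normalization, and in the former Wars was called with the same FPKM sum (-0.51) and with neighbouring genes removed (-0.51). Across the branch, A-485 against OGD gave 2 genes called higher (Phgdh and Slc3a2), 0 lower and a median of 0.16. The 15.4% higher was near the 12.2% of all genes, both calls were lost in the other scalings, and the median was 0.03 with quantile normalization and 0.06 with the same FPKM sum. By limma-voom 0 were lower as well, and 2 had a negative change with a p under 0.05 before adjustment. Against control, 2 were called higher (Sars and Slc3a2) and 2 lower (Psph and Mthfd2), 15.4% in each direction and close to the 17.0% and 16.6% of all genes, with a median of -0.10. In each of the other scalings 1 was higher (Sars) and 3 were lower (Psph, Mthfd2 and Shmt2), with medians of -0.40 with quantile normalization and -0.26 with the same FPKM sum.

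The ATF4 stress and feedback genes moved the other way in OGD: 3 of 4 tested were called higher, 75% of a short list beside 11.2% of all genes, and their median was 0.72. Sesn2, sestrin 2, an inhibitor of mTORC1 signalling, measured 7.86, 8.85 and 7.82 FPKM in control, 17.1, 18.3 and 18.6 after OGD and 14.6, 13 and 16.4 in OGD + A-485. The OGD libraries were highest, and those with A-485 remained above control. It rose in OGD by 1.13 ± 0.09 (limma adjusted p = 1.4e-05) and was 0.83 ± 0.09 above control with A-485 (limma adjusted p = 4.2e-05). Ppp1r15a, the GADD34 subunit that returns eIF2α to its unphosphorylated form, measured 7.06, 6.02 and 6.33 FPKM in control, 10.4, 11.6 and 12.4 after OGD and 16, 15.3 and 16.3 in OGD + A-485. Here every OGD + A-485 library was above every OGD library, and these above every control library. It rose by 0.82 ± 0.08 in OGD (limma adjusted p = 4.9e-05) and by 1.28 ± 0.08 in OGD + A-485 against control (limma adjusted p = 1.4e-06), and the 0.47 ± 0.08 between OGD + A-485 and OGD was not called, but passed without OGD replicate 3 (0.52).

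Trib3, a pseudokinase that restrains ATF4 and CHOP, measured 15.5, 18 and 15.1 FPKM in control, 26.5, 24.8 and 23.2 after OGD and 20.2, 18.5 and 22.8 in OGD + A-485. OGD libraries were above both other groups, and the OGD + A-485 libraries were above control. It rose in OGD by 0.61 ± 0.09 (limma adjusted p = 0.00067), while -0.28 ± 0.09 with A-485 against OGD was not called (-0.07 with neighbouring genes removed). Chac1, an enzyme that degrades glutathione, was lowest of the 4 at 2.47, 2.70 and 2.04 FPKM in control, 3.46, 3.85 and 3.0 after OGD and 2.80, 2.40 and 2.75 in OGD + A-485, from 54 to 82 reads a library. The OGD libraries were above all others, by 0.50 ± 0.13 against control (limma adjusted p = 0.013), just under the threshold on size. It was not called, and passed with a pseudocount of 0.01 (0.52), with limma-voom (0.52), with neighbouring genes removed (0.59), without control replicate 2 (0.59) and without OGD replicate 3 (0.59). Over all libraries left out in turn, its value in OGD ranged from 0.39 to 0.59. In OGD + A-485 against OGD, limma called 0 of the 4 in either direction, 1 was higher and 3 lower at a p under 0.05 before adjustment, and limma-voom called 0. With the median of neighbouring genes removed, Sesn2 passed (-0.53). Their median was -0.29. Against control 2 were called higher, Ppp1r15a and Sesn2, 2 of 4 beside 17.0% of all genes, and the median was 0.59. Trib3 stood at 0.34 ± 0.09 there and was not called. With neighbouring genes removed its 0.79 was past the threshold on size, with the p of the main fit kept.

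The ER chaperone branch held the lowest log2 fold change of all members in OGD, that of Creld2. Of 13 genes, 6 were called lower (Creld2, Pdia6, Dnajc3, Calr, Hsp90b1 and Manf), 46.2% beside 9.81% of all genes, and 0 higher, and the median was -0.44. By limma-voom 0 were higher as well, and 4 had a positive change with a p under 0.05 before adjustment. Hspa5, the chaperone BiP that holds the ER sensors inactive (chr2:34771970-34777547), measured 173, 167 and 178 FPKM in control, 131, 122 and 128 after OGD and 225, 219 and 225 in OGD + A-485. Every OGD library was below every control library, and every OGD + A-485 library above both groups. The change in OGD was -0.44 ± 0.04 (limma adjusted p = 3.7e-05), under the threshold on size, and was called with quantile normalization (-0.61), with the same FPKM sum in every library (-0.51) and with neighbouring genes removed (-0.55). With A-485 it rose by 0.82 ± 0.04 against OGD (limma adjusted p = 8.5e-07), and was 0.37 ± 0.04 above control, or 0.03 with quantile normalization and 0.21 with the same sum. Calr, the lectin chaperone calreticulin (chr8:84841850-84846934), followed the same order at 197, 205 and 207 FPKM in control, 135, 119 and 126 after OGD and 261, 253 and 249.7 in OGD + A-485. The OGD libraries were lowest and the OGD + A-485 libraries highest, without overlap. It fell in OGD by 0.68 ± 0.05 (limma adjusted p = 1.2e-05) and rose with A-485 by 1.005 ± 0.05 (limma adjusted p = 8.5e-07), and its 0.33 ± 0.05 against control turned to -0.04 with quantile normalization. Dnajc3, a BiP cochaperone that also inhibits PERK, was a low gene with 5.29, 4.91 and 4.67 FPKM in control, 2.69, 3.53 and 2.88 after OGD and 8.57, 8.24 and 8.31 in OGD + A-485. It showed the same order of groups, with a fall in OGD of -0.70 ± 0.10 (limma adjusted p = 0.00043) and a rise with A-485 of 1.45 ± 0.10 (limma adjusted p = 4.6e-06), to 0.75 ± 0.10 above control (limma adjusted p = 0.00018). Its 50 nearest genes had a median of 0.41 in that last comparison, and 0.33 was left once it was taken off.

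Creld2, a secreted ER stress protein, measured 27.5, 27.7 and 28.6 FPKM in control, 15.8, 13.9 and 14.2 after OGD and 22.9, 19.9 and 22.8 in OGD + A-485. The OGD libraries were lowest, and those with A-485 lay between them and control. It fell in OGD by 0.93 ± 0.07 (limma adjusted p = 9.2e-06), the lowest value of the branch, and rose with A-485 by 0.58 ± 0.07 (limma adjusted p = 0.0001), a call lost with the same FPKM sum (0.48). Pdia6, a protein disulfide isomerase, measured 75.5, 75.5 and 76 FPKM in control, 45.5, 41.6 and 44.4 after OGD and 60.4, 55.7 and 57.6 in OGD + A-485. Its groups were ordered as in Creld2, with a fall in OGD of -0.79 ± 0.04 (limma adjusted p = 2.8e-06) and an uncalled 0.40 ± 0.04 with A-485. Hsp90b1, the ER form of HSP90, and Manf, a secreted ER protein, also fell in OGD, by 0.65 and 0.63, and their 0.44 and 0.24 with A-485 against OGD were not called, but passed with neighbouring genes removed (0.51 and 0.61). Manf overlaps Dcaf1 on the opposite strand and Rbm15b in the annotation, and its reads are uncertain.

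A second set of genes in the branch was not lower in OGD. Dnajb9, the BiP cochaperone ERdj4, measured 4.23, 4.18 and 5.28 FPKM in control, 4.87, 5.82 and 4.18 after OGD and 10.9, 11.1 and 11.5 in OGD + A-485. Control and OGD libraries overlapped, and every OGD + A-485 library lay above them. It rose with A-485 by 1.17 ± 0.13 against OGD (limma adjusted p = 7e-05) and 1.28 ± 0.13 against control (limma adjusted p = 2.8e-05). Herpud1, a component of ER-associated degradation whose promoter holds ERSE-II and CARE, measured 22.7, 22.3 and 21.1 FPKM in control, 24.1, 23 and 25 after OGD and 43, 41.5 and 39.7 in OGD + A-485. The OGD libraries were near control and those with A-485 far above, by 0.78 ± 0.05 against OGD (limma adjusted p = 2.6e-06) and 0.91 ± 0.05 against control (limma adjusted p = 5.8e-07). Sel1l, of the same degradation complex, averaged 17.9, 20.4 and 28.7 FPKM and was called higher with A-485 against control at 0.67 ± 0.05 (limma adjusted p = 3.2e-06). Its 0.49 ± 0.05 against OGD was under the threshold, and passed with neighbouring genes removed (0.55), without OGD replicate 2 (0.52) and without OGD + A-485 replicate 3 (0.51). Edem1, which extracts misfolded glycoproteins for degradation, was the exception, with 42, 54.7 and 37.6 FPKM: its 0.38 ± 0.05 in OGD was under the threshold, and it fell with A-485 by 0.54 ± 0.05 (limma adjusted p = 3.6e-05), a call lost without OGD replicate 2 (-0.49). Pdia4 and Sdf2l1 were not called in any comparison, with means from 46.3 to 50.002 and from 66 to 73.7 FPKM.

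Over the branch, OGD + A-485 against OGD gave 6 genes called higher (Dnajc3, Dnajb9, Calr, Hspa5, Herpud1 and Creld2), 1 lower (Edem1) and a median of 0.49, or 46.2% higher and 7.69% lower beside 12.2% and 13.4% of all genes. With the same FPKM sum 5 were higher. Against control, 4 were higher (Dnajb9, Herpud1, Dnajc3 and Sel1l), 30.8% beside 17.0% of all genes, and 0 lower by limma and limma-voom, while 5 had a negative change with a p under 0.05 before adjustment. With quantile normalization 1 was lower in that comparison, Pdia6 at -0.54, and with the same FPKM sum 3 were, Pdia6 at -0.55, Manf at -0.55 and Creld2 at -0.51. The 6 genes with ERSE all lay below 0 in OGD, from -0.93 to -0.44 with a median of -0.69, and all above 0 with A-485 against OGD, from 0.40 to 1.45 with a median of 0.70. The 6 with a promoter and without ERSE lay between 0.11 and 0.38 in OGD, with a median of 0.13, and between -0.54 and 1.17 with A-485. Manf, with no promoter at hand and -0.63 in OGD, is in neither set. The split by motif was made with the values known and has no test. ERSE-II stood in 8 tested genes outside the members, with a median of -0.08 in OGD. Of these 8, 2 were called lower in OGD, with Dnajb11 at -0.83, and 0 higher. Outside the members, 11 tested genes held ERSE, and in OGD 2 of them were called higher and 1 lower, with a median of 0.11. With A-485 against OGD, 2 of these were called higher and 3 lower, with a median of 0.15. The 282 tested genes with CARE outside the members had a median of 0.12 in OGD and 0.06 with A-485 against OGD. In OGD 48 of them were called higher and 37 lower. Of the 9719 tested genes outside the members with a promoter at hand, 1221 and 1172 were, beside 11.2% and 9.81% of all genes. With A-485 against OGD 66 of the 282 with CARE were called higher and 41 lower. Of the same 9719 genes 1434 and 1563 were, beside 12.2% and 13.4% of all genes.

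Both branches were then set side by side library by library, as the mean over genes of log2(FPKM + 0.1) minus the control mean. The ER chaperone branch stood at 0.00, -0.02 and 0.02 in control, -0.29, -0.29 and -0.30 after OGD and 0.24, 0.19 and 0.23 in OGD + A-485. Its 3 groups did not overlap, with OGD lowest and OGD + A-485 highest, although its median against control turned below 0 in other scalings, as given further on. The ATF4 amino acid branch stood at 0.02, 0.02 and -0.03 in control, -0.20, -0.21 and -0.22 after OGD and -0.02, -0.09 and -0.06 in OGD + A-485. Here too OGD was lowest, but 1 of the libraries with A-485 lay within the range of control and the others just below it. The medians of the branch against control did not keep this order in each scaling, and were -0.22 in OGD and -0.40 in OGD + A-485 with quantile normalization, and with the same FPKM sum -0.32 and -0.26. The ATF4 stress and feedback genes stood at 0.02, 0.09 and -0.10 in control, 0.74, 0.82 and 0.74 after OGD and 0.67, 0.52 and 0.75 in OGD + A-485, and the latter groups overlapped far above control. For the transcription factors the OGD libraries stood at 0.41, 0.38 and 0.37 and those with A-485 at 0.29, 0.27 and 0.38, and for the sensors at 0.19, 0.24 and 0.13 and at 0.38, 0.38 and 0.31. As summed FPKM, the ER chaperone branch came to 849 ± 10.9 (SD, n = 3) in control, 648 ± 19.3 after OGD and 939 ± 15.5 in OGD + A-485, and the ATF4 amino acid branch to 1144 ± 17.5, 1011 ± 6.46 and 1140.0 ± 35.4. In both branches the sum was lowest in OGD. The difference between the branches was not tested.

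**Figure D4:**
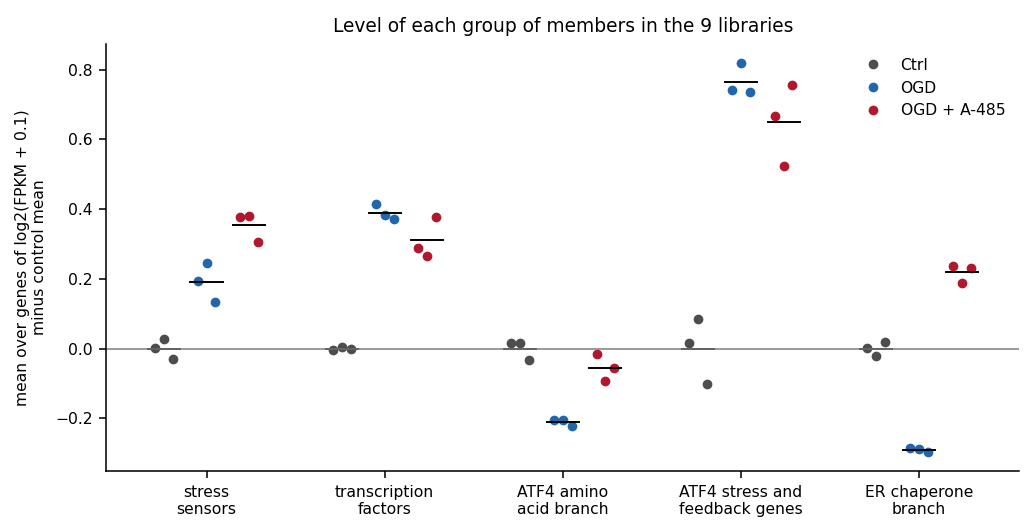
Mean over the genes of each group of members of log2(FPKM + 0.1) minus the control mean, in the 9 libraries. Points are libraries and bars are group means. The ER chaperone branch is lowest in OGD and, in this scaling, highest in OGD + A-485 (its median against control turns to -0.10 with the same FPKM sum in every library), and the ATF4 stress and feedback genes are high in both OGD groups.

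The scale of the libraries bears on levels against control. With the same FPKM sum in every library, the median of all genes in OGD + A-485 against control moved from 0.02 to -0.13, and the share of calls that were higher fell to 36.2% from 50.6%, with 36.9% in place of 47.7% against OGD. The median of the ER chaperone branch against control, 0.06, turned to -0.10 there and to -0.05 with quantile normalization, so no direction is given for it. In both scalings the branch stayed below 0 in OGD and above 0 with A-485 against OGD.

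Other genes of the same pathways were described from lists, whose counts stand beside the shares of all genes called. These were 11.2% higher and 9.81% lower in OGD, 12.2% and 13.4% with A-485 against OGD, and 17.0% and 16.6% against control, and in lists of 10 to 34 genes 1 gene moves a share by 3 to 10 points. In the eIF2α machinery, the subunits of eIF2 and of its exchange factor eIF2B, the heme and double-stranded RNA kinases, the adaptors Gcn1l1 and Nck1 and the phosphatase subunit Ppp1r15b, 1 of 13 was called lower in OGD, Eif2b4 at -0.60 ± 0.07 (7.69%, under the share of all genes), and 3 (23.1%) with A-485 against OGD, led by Nck1 at -0.74 ± 0.08 and Eif2s2 at -0.57 ± 0.06. Against control 5 (38.5%) were lower, with Eif2b5 at -0.77 ± 0.05 and Eif2b3 at -0.70 ± 0.07. In all 3 comparisons 0 were higher by limma and limma-voom. At a limma p under 0.05 before adjustment, 1, 3 and 1 had a positive change, and 9, 5 and 8 a negative change. By adjusted p under 0.05 alone, 9 of the 13 were lower in OGD, beside 22.8% of all genes. The medians were -0.24, -0.09 and -0.32, the last 2 -0.19 and -0.48 with the same FPKM sum.

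Among 33 further ATF4 and CHOP targets, 28 were tested, and Fgf21, Cth, Cbs, Slc7a3 and Tnfrsf10b were too low. In OGD 7 were called higher (25%) and 3 lower (10.7%, close to the share of all genes), with a median of 0.10 that was 0.04 with the same FPKM sum. Ero1l, the ER oxidase, which hypoxia also raises, went from 90.7 ± 4.73 to 466 ± 68 FPKM, a rise of 2.35 ± 0.09 (limma adjusted p = 5.5e-07), and remained 2.16 ± 0.09 above control with A-485. Aldh1l2, a mitochondrial folate dehydrogenase, rose by 1.496 ± 0.08 in OGD. Shmt1, the cytosolic serine hydroxymethyltransferase, fell from 40.8 ± 0.584 to 19.3 ± 2.17 FPKM, by 1.08 ± 0.07, and Slc7a11, the cystine transporter, by 0.99 ± 0.10. With A-485 against OGD, 5 were called higher and 5 lower (17.9% each), and 4 and 3 higher in the other scalings. Atf5, a factor translated much as Atf4 is, rose from 5.30 ± 0.201 to 16.2 ± 2.11 FPKM, by 1.59 ± 0.12 (limma adjusted p = 7.8e-06), and Stc2, a secreted stress protein, by 0.88 ± 0.10. Aldh18a1, which makes proline precursors, fell by 0.93 ± 0.05, and Bbc3, the CHOP target PUMA, by 0.86 ± 0.15. Against control 11 were higher (39.3%) and 6 lower (21.4%), among them Ddit4, an mTORC1 inhibitor, at 1.72 ± 0.08, Shmt1 at -1.21 ± 0.07 and Aldh18a1 at -0.93 ± 0.05. With the same FPKM sum in every library 7 were higher and 7 lower there, and the median of 0.14 turned to -0.02.

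A list of 18 further genes of cytosolic tRNA charging held 15 for synthetases and 3 for scaffold proteins of the complex they form (Aimp1, Aimp2 and Eef1e1). In OGD limma called 0 of the 18 in either direction, 4 were higher and 7 lower at a p under 0.05 before adjustment, limma-voom called 0, and the median was -0.04, or -0.10 with the same FPKM sum. With A-485, the same 2 (11.1%, under the share of all genes) were called lower against OGD and against control, the scaffold gene Eef1e1 at -0.73 ± 0.05 and -0.88 ± 0.05 and the synthetase gene Mars at -0.51 ± 0.04 and -0.69 ± 0.04. With the same FPKM sum 3 of the 18 were lower against OGD (16.7%), beside 2645 of all 16123 genes, and were not clearly under that share. Of 17 mitochondrial tRNA synthetases, 1 was higher in OGD (Iars2 at 0.50 ± 0.03, a call lost with the same FPKM sum at 0.44) and 4 lower (23.5%), led by Mars2 at -1.28 ± 0.08 and Yars2 at -0.75 ± 0.06. With A-485 2 were lower against OGD (11.8%, under the share of all genes), Vars2 at -0.74 ± 0.07 and Fars2 at -0.51 ± 0.09. With quantile normalization the call of Fars2 was lost (-0.44) and Cars2 was called higher (0.51), and with the same FPKM sum 3 were lower. Against control 6 were lower (35.3%), with Mars2 at -1.14 ± 0.08 and Vars2 at -1.07 ± 0.07.

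Of 36 further genes of ER folding, export and ER-associated degradation (ERAD), 34 were tested, and Derl3 and Creb3l2 were too low. In OGD 4 were called higher and 3 lower, shares close to those of all genes, with a median of -0.04 that was 0.01 with quantile normalization and -0.11 with the same FPKM sum. P4hb, a disulfide isomerase and subunit of prolyl hydroxylase, rose from 177 ± 5.27 to 354 ± 4.48 FPKM (0.997 ± 0.05, limma adjusted p = 1.9e-06) and Erlec1, an ER lectin, by 0.86 ± 0.08. The chaperones Hyou1 and Dnajb11, partners of BiP, fell by 0.91 ± 0.06 and 0.83 ± 0.05. With A-485 against OGD 15 of 34 were called higher, 44.1% beside 12.2% of all genes, and the median was 0.35. With quantile normalization and with the same FPKM sum in every library 10 were higher, and the medians were 0.33 and 0.25. By limma and limma-voom 0 were lower, and 5 had a negative change with a p under 0.05 before adjustment. Selenos, an ERAD selenoprotein, rose by 1.06 ± 0.11 (limma adjusted p = 5e-05) and Txndc11 by 0.90 ± 0.05 (limma adjusted p = 2.2e-06). Against control 12 were higher (35.3%), with P4hb at 1.72 ± 0.05 and Erlec1 at 1.13 ± 0.08, and 3 lower (8.82%, or 5 genes with the same FPKM sum), among them Atf6b at -0.63 ± 0.10 and Pdia5 at -0.55 ± 0.06.

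Chaperones outside the ER were compared as well. Of 16 cytosolic heat shock chaperones 13 were tested, and Hspa1a, Hspa1b and Hspb1 were too low. In OGD 4 were called lower (30.8%), led by Hsph1 at -0.92 ± 0.04 and Ahsa1 at -0.89 ± 0.05, with a median of -0.37. With A-485 against OGD limma and limma-voom called 0 of them, 6 were higher and 1 lower at a p under 0.05 before adjustment, and the median was 0.14, or 0.05 with the same FPKM sum. Hsph1 and Stip1 stayed below control in OGD + A-485, at -0.85 ± 0.04 and -0.51 ± 0.04, and in each of the other scalings 4 were called lower there. Of 10 genes of the mitochondrial unfolded protein response, 1 was higher in OGD, the protease Lonp1 at 0.50 ± 0.06, a call lost with quantile normalization (0.45) and with the same FPKM sum (0.44), and 3 were lower, with the chaperonin Hspd1 at -0.67 ± 0.04 and the protease Htra2 at -0.64 ± 0.12. With A-485 against OGD 3 were lower, with the protease subunit Clpx at -1.08 ± 0.05 (limma adjusted p = 4.4e-07) and Lonp1 at -0.98 ± 0.06 (limma adjusted p = 3.2e-06), and the median was 0.01, or -0.10 and -0.08 in the other scalings. Against control 4 were lower, or 6 and 5 in those scalings, with Htra2 at -0.94 ± 0.12 and Clpp at -0.85 ± 0.06.

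**Figure D5:**
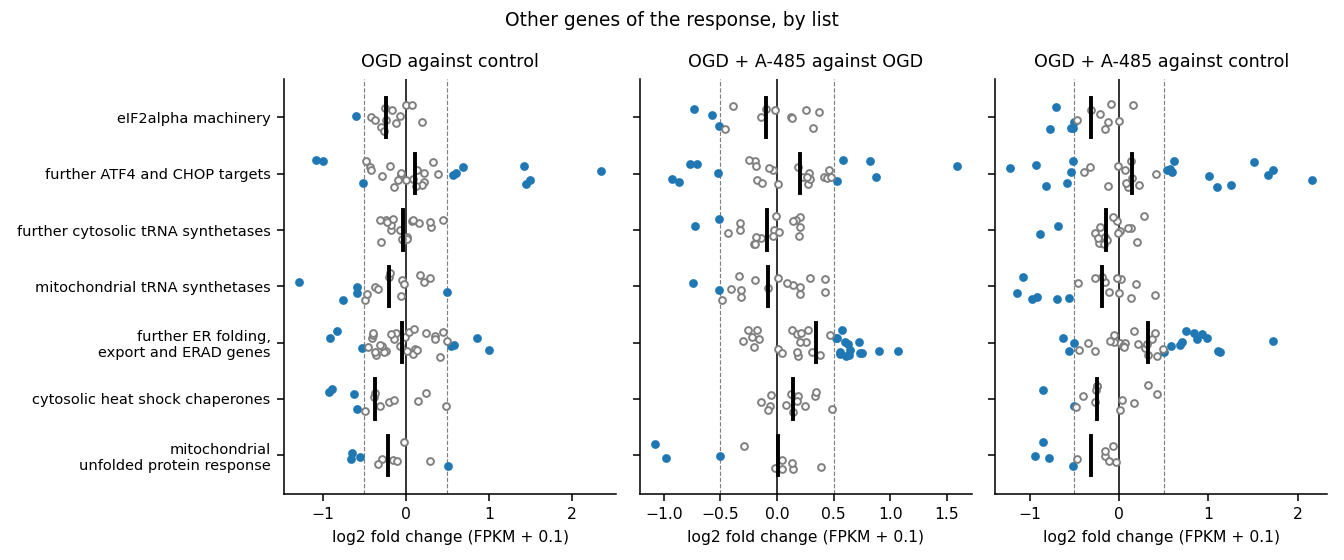
Log2 fold changes (FPKM + 0.1) of the tested genes in 7 other lists (that named for cytosolic tRNA synthetases holds 3 scaffold genes as well), with 1 point a gene, filled where called, and black bars at the list medians. In OGD + A-485 against OGD, 15 of 34 further ER genes are called higher, from 0.52 (Ube2j1) to 1.06 (Selenos).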

How the data were processed

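RNA from 9 libraries of BV2 cells, 3 in each of 3 groups named by their labels, had been sequenced. The authors counted reads per gene with featureCounts v1.5.0-p3 and deposited FPKM, and used DESeq2 for their own comparisons, which are not used here. The submitters' processing notes name the genome builds GRCm38 and mm10. The aligner, the annotation release and the use of strand in counting are not given in the sources used here.

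Whole reads were recovered from FPKM and gene length for 100% of values within a tolerance of 0.01 reads, and gave the depth. The divisor of each library was the geometric mean of the totals multiplied by a size factor from medians of ratios. The 16123 genes whose mean reached 0.2 FPKM were fitted on log2(FPKM + 0.1) over all 9 libraries by limma 3.58.1 (R 4.3.3), each group having its own mean and the prior variance following a trend. Calls needed a p under 0.01 before adjustment and a log2 fold change beyond 0.5, the thresholds of the study, and p-values were adjusted over all genes (Benjamini-Hochberg). On this scale the changes of low genes are understated. The fits were tested on simulated data with known changes. Tables, promoter searches and figures used Python 3.11.15, numpy 2.4.6, pandas 2.3.3 and matplotlib 3.10.9.

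The members and lists were chosen with earlier results of these data known, so counts and medians stand without a test over members. Values per library are given for Atf4, Ddit3, Xbp1, Hspa5, Asns, Trib3 and Chac1, and for the 3 members of each role with the largest change in a comparison among those called. From each other list the 2 largest rises and the 2 largest falls among those called with a mean of at least 1 FPKM are named. Other pseudocounts (1 and 0.01), filters, scalings, limma-voom on the recovered reads, a replicate block, another call rule, removal of the median of 50 neighbouring genes, the 5 ATF4 stress and feedback genes added to the amino acid branch, and each library left out were tried. Removal of the neighbours' median shifted the log2 fold change alone, and calls in that setting used the p of the main fit.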

Additional observations from a re-analysis of the deposited data

How the results depend on the processing

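By adjusted p under 0.05 alone, in place of the unadjusted p and the threshold on size, 14 members were higher and 16 lower in OGD against control, 22 and 7 in OGD + A-485 against OGD, and 18 and 12 in OGD + A-485 against control. In OGD + A-485 against control the 2 members called lower became 1 with a pseudocount of 1, 4 with quantile normalization and 6 with the same FPKM sum in every library. With the median of 50 neighbouring genes removed, 4 members were lower in OGD + A-485 against OGD, by shifted log2 fold changes and the p of the main fit.

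With quantile normalization the median of the ATF4 amino acid branch was -0.22 in OGD against control, 0.029 in OGD + A-485 against OGD and -0.40 in OGD + A-485 against control, and that of the ER chaperone branch -0.60, 0.42 and -0.050. With the same FPKM sum in every library they were -0.32, 0.064 and -0.26, and -0.51, 0.39 and -0.10. With neighbouring genes removed the ER chaperone branch was at -0.54 in OGD and 0.61 with A-485 against OGD, and the ATF4 amino acid branch at 0.10 in the latter. With the 5 ATF4 stress and feedback genes added, of which 4 were tested, the amino acid branch was at -0.11 in OGD and 0.036 in OGD + A-485 against control. The causes were not tested.

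Leaving out each library in turn gave 6 to 7 members higher and 8 to 9 lower in OGD against control, 10 to 11 and 2 to 3 in OGD + A-485 against OGD, and 10 to 11 and 1 to 2 in OGD + A-485 against control. In these comparisons the median of the ATF4 amino acid branch ranged from -0.28 to -0.23, from 0.14 to 0.20 and from -0.12 to -0.08, and that of the ER chaperone branch from -0.47 to -0.42, from 0.45 to 0.52 and from 0.043 to 0.082.

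The replicate numbers share no source in the labels. Deviations of libraries with the same number correlated at a mean of -0.03 over 9 pairs (from -0.125 to 0.072), beside 0.015 over 18 pairs with different numbers. With the replicate number as a block, 6 members were higher and 9 lower in OGD, 10 and 2 in OGD + A-485 against OGD and 11 and 2 in OGD + A-485 against control, and over all genes 1740 were higher and 1548 lower, 1937 and 2109, and 2691 and 2626.

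With 3 libraries a group, low genes such as Chac1, with 54 to 82 reads a library, allow less precision than abundant ones, and a change under the threshold is not shown to be absent.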
